A study of Mus musculus with 12 samples.

Results

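The PEA3 factors Etv1, Etv4 and Etv5 were followed by their rows in a count table of mouse lung tumour cells. They were chosen by symbol: 3 genes of 30743 in the table, all 3 with counts in each of 12 libraries and all 3 past the filter on low counts. Cells were sorted from dissociated tumours (mouse strain mixed BL6/129), leaving out cells stained for CD45, CD31, F4/80 or Ter119, and polyadenylated RNA was amplified before sequencing. The groups were KT;Lkb1f/f tumours (3 libraries), with floxed alleles of Lkb1, whose gene symbol is Stk11; KT;H11LSL-Cas9 tumours titled sgSik1 (3 libraries) or sgSik1-3 (2 libraries), with a Cre-dependent Cas9 allele and guides against Sik genes; and KT tumours (4 libraries). All groups carry the KT background. The genotype label gives both Cas9 titles 1 name, and these 5 libraries are called Sik-targeted below. What the range in sgSik1-3 covers is not explained in the labels, no Cas9 group with a control guide was analysed here, and lentiviral Cre is named in a second sample name of all KT libraries except replicate 1. Nothing in the labels says that the libraries of 1 group are from different animals, so a p-value here reflects library-to-library spread, possibly technical.

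The PEA3 factors are a subfamily of the ETS transcription factors, which bind DNA at GGAA cores. They are classic nuclear outputs of receptor tyrosine kinase signalling through RAS and ERK: ERK signalling relieves repression of their genes by Capicua (Cic), and the COP1 ubiquitin ligase limits the proteins. In the lung, Etv5 maintains alveolar type 2 (AT2) cells, the surfactant-making epithelial cells that can also give rise to adenocarcinoma, and Etv4 and Etv5 act in the branching epithelium of the embryonic lung downstream of Fgf10 and Fgfr2. Lkb1 is a kinase that switches on Sik1, Sik2 and Sik3, known as salt-inducible kinases.

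In RefSeq's GRCm38.p6, a release of the mm10 build, Etv1 spans chr12:38780082-38870483 (plus strand), Etv4 chr11:101769747-101785310 (minus strand) and Etv5 chr16:22381313-22439570 (minus strand), exons, introns and untranslated regions together. The 250 bases before the outermost RefSeq start (GRCm38.p6) are shown for both genes called below, on the strand of the gene, with matches to AGGAAG, the PEA3 motif of the ETS family, in capitals. The Etv1 window is chr12:38779832-38780081 (plus strand) and the Etv5 window is chr16:22439571-22439820 (minus strand).
Etv1: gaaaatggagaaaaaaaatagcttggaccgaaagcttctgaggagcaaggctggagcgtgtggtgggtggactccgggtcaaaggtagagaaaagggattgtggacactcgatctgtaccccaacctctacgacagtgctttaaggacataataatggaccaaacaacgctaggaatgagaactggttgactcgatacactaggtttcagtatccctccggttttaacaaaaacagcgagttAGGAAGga
Etv5: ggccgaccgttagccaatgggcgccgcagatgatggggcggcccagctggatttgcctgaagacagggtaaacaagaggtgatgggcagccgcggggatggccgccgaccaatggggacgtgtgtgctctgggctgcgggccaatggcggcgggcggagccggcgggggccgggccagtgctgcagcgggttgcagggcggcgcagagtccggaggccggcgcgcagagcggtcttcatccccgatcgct
The Etv1 window held 1 match to AGGAAG, at positions -8 to -3 from the start site, and the Etv5 window held none. RefSeq lists a second start for each gene; the windows before these, chr12:38783461-38783710 for Etv1 and chr16:22438369-22438618 for Etv5, held 0 matches to any motif searched. The first 30 transcribed bases were found in 1 GENCODE transcript for the Etv1 start shown and 3 for its second start, and in 3 and 0 for those of Etv5. AGGAAG was found on either strand in 29.5% of 32851 RefSeq promoter windows of this length. Neither window held a Capicua octamer (TGAATGAA, TGAATGGA, TCAATGAA or TCAATGGA, present in 3.19% of windows), the cyclic AMP response element TGACGTCA (1.55%) or its part TGACG (17.8%, which includes windows with the full element). The Etv5 window was 71.2% G and C with 27 CpG dinucleotides, against 46.4% and 9 in the Etv1 window.

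Libraries held 3847760 to 13955181 counts, and levels are given as CPM (counts scaled by library size) on TMM effective library sizes. The libraries stood apart from each other, also within a group. KT replicates 2 and 3 showed a count for 23582 and 23747 genes, while the range over the rest was 14283 to 16533. Among these were 998 and 1063 olfactory and vomeronasal receptor genes, against 14 to 58. KT replicates 2 and 3 were also the closest pair of any group, at a chi-square per degree of freedom of 15.1 between their counts, against 38 to 445 for other pairs. Whether they are separate animals is not given, and each was counted as 1 library in every test. The 4 most abundant transcripts took 27.5, 35.3, 28.9 and 48.1% of the counts of KT replicates 1 to 4. They took 46.6 to 56.5% in KT;Lkb1f/f and 38.3 to 74.2% in Sik-targeted libraries, the most in sgSik1 replicate 1. This share was thus lower in most KT libraries, and its part in the differences from KT was not tested. Stk11 was 9.28, 16.5 and 9.90 CPM in the KT;Lkb1f/f libraries, against 30.9 to 44.6 CPM in the KT libraries, a log2 change of -1.71 that missed the threshold (adjusted p = 0.16). In Sik-targeted libraries Sik3 fell by 1.33 on the log2 scale (adjusted p = 0.0209) while Sik1 rose by 2.24 (adjusted p = 0.0078) and Sik2 by 1.22 (adjusted p = 0.0328). Counts over whole genes do not read guide cuts. The epithelial markers summed to 1560 to 2590 CPM in KT;Lkb1f/f, 1860 to 5330 CPM in Sik-targeted and 972 to 1370 CPM in KT libraries, and the AT2 marker Sftpc was detected in every library.

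In Sik-targeted tumour cells the 3 genes went different ways: Etv1 and Etv5 fell and Etv4 was on average higher without passing the test. Etv1 was 0.852, 5.04 and 0.331 CPM in the sgSik1 libraries and 0.948 and 1.27 CPM in the sgSik1-3 libraries, against 14.8, 9.22, 9.45 and 12.1 CPM in the KT libraries. All 5 Sik-targeted libraries lay below all 4 KT libraries, with sgSik1 replicate 2 the nearest to them. The means were 1.69 ± 1.91 CPM (SD, n = 5) and 11.4 ± 2.60 CPM (SD, n = 4), and the fitted log2 change was -2.75 (SE 0.68), or 6.74-fold lower, with an adjusted p of 0.0181 by edgeR's quasi-likelihood test with Benjamini-Hochberg adjustment. The low group rests on 55 counts in all, from 3 to 35 in a library, against 397 in KT. Leaving out sgSik1 replicate 2, which gave 35 of the 55 counts, took the log2 change to -3.85. With KT replicates 2 and 3 both left out it was -2.99 and missed the threshold (adjusted p = 0.104).

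Etv5 was 51.4, 92.2 and 45.9 CPM in the sgSik1 libraries and 49.3 and 44.6 CPM in the sgSik1-3 libraries, against 326, 153, 163 and 324 CPM in the KT libraries. Every Sik-targeted library was again below every KT library, and sgSik1 replicate 2 was again the highest of the Sik-targeted ones. Etv5 averaged 56.7 ± 20.0 CPM (SD, n = 5) in Sik-targeted and 241 ± 96.6 CPM (SD, n = 4) in KT libraries, a log2 change of -2.11 (SE 0.36), or 4.31-fold lower (adjusted p = 0.00351, edgeR). KT replicates 2 and 3, the libraries with receptor gene counts, had the lower KT levels, and without both of them the log2 change was -2.55 (adjusted p = 0.0149).

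Etv4 was 24.7, 5.33 and 6.34 CPM in the sgSik1 libraries and 11.1 and 12.1 CPM in the sgSik1-3 libraries, against 3.14, 3.95, 5.82 and 3.18 CPM in the KT libraries. The groups overlapped, since sgSik1 replicate 2 lay below KT replicate 3, and sgSik1 replicate 1 was the highest of all 12 libraries. The means were 11.9 ± 7.72 CPM (SD, n = 5) in Sik-targeted and 4.02 ± 1.26 CPM (SD, n = 4) in KT libraries. The log2 difference was 1.51 (SE 0.48), with a 95% interval of 0.487 to 2.54 before adjustment, and the adjusted p was 0.0518, just outside the threshold of 0.05. It passed with DESeq2 (adjusted p = 0.0254), with no low-count filter (0.0253), and without KT;Lkb1f/f replicate 1 (0.036), KT;Lkb1f/f replicate 2 (0.0423) or sgSik1 replicate 2 (0.0251). Over single libraries left out the log2 difference ran from 1.06, without sgSik1 replicate 1 (adjusted p = 0.114), to 1.74. Across all 13575 genes tested, 6.56% were called lower and 5.81% higher in this comparison, and groups did not overlap for 8.54% on the lower side and 7.56% on the higher side. Of the 3 members, 2 were called lower and 0 higher, and the groups did not overlap for those same 2. In these bulk samples, fewer cells of a type and less RNA per cell cannot be told apart.

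**Figure D1:**
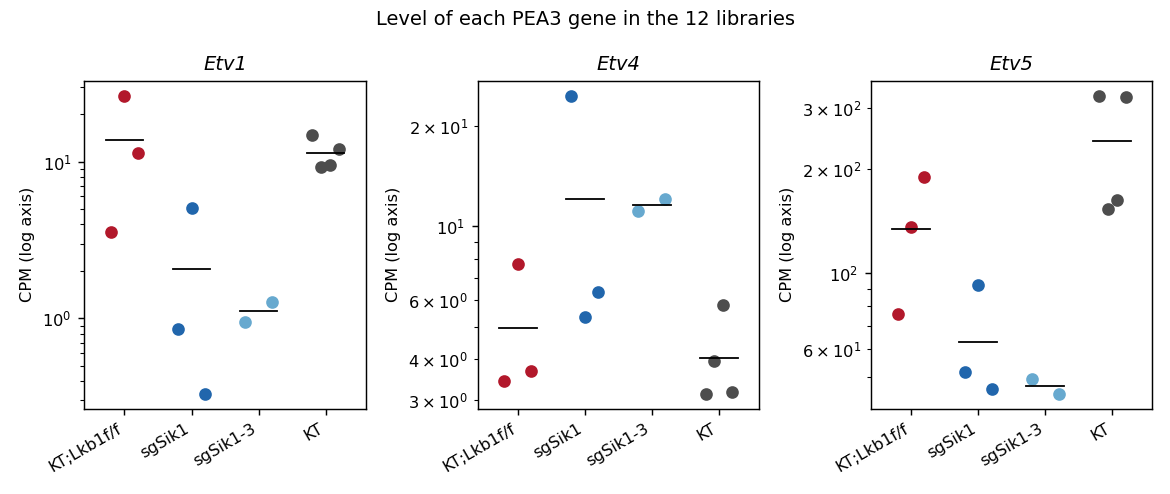
CPM of Etv1, Etv4 and Etv5 (log axes, a scale of its own for each gene) in the KT;Lkb1f/f, sgSik1, sgSik1-3 and KT libraries; each point is 1 library and each line a group mean. Etv1 and Etv5 are lower in all 5 sgSik1 and sgSik1-3 libraries than in all 4 KT libraries, while Etv4 reaches 24.7 CPM in sgSik1 replicate 1.

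The KT;Lkb1f/f libraries gave no call for any of the 3 genes, in a comparison in which 1.16% of all genes were called in either direction. Etv1 was 3.54, 26.2 and 11.4 CPM in KT;Lkb1f/f libraries, a 7.4-fold range around the 9.22 to 14.8 CPM of the KT libraries. The lowest of these 3 values was below every KT library and the highest was above every KT library, and the log2 difference was 0.26 with a 95% interval of -1.23 to 1.76 (adjusted p = 0.921, edgeR). Without KT;Lkb1f/f replicate 2 it was -0.62. Etv1 was ranked like the sums of stromal markers in these 3 libraries: in replicates 1, 2 and 3, fibroblast and pericyte markers summed to 2.69, 437 and 82.7 CPM and endothelial markers to 1.34, 223 and 85.8 CPM, against 30.3 to 405 CPM and 15.7 to 46.6 CPM in KT libraries. KT libraries did not share this order: KT replicate 1 had the highest Etv1 of them, 14.8 CPM, and the lowest of both sums. The part of stromal cells in the Etv1 values was not tested.

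Etv4 was 3.42, 7.71 and 3.67 CPM in KT;Lkb1f/f libraries, so that replicate 2 exceeded every KT library and the others did not. The log2 difference was 0.27, with an interval of -0.861 to 1.4 (adjusted p = 0.893). Etv5 was 76.0, 136 and 190 CPM in KT;Lkb1f/f libraries, against the 153 to 326 CPM of KT libraries. Replicates 1 and 2 were below all KT libraries and replicate 3 was within their range. The mean was 134 ± 56.8 CPM (SD, n = 3) and the log2 difference -0.86 (SE 0.41, adjusted p = 0.395), with an interval of -1.74 to 0.02 that spans 0 at its upper end. A p-value that misses the threshold does not show that the levels were alike.

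Set directly against the Sik-targeted libraries, the KT;Lkb1f/f libraries had higher Etv1 (log2 difference 3.02, SE 0.71) and Etv5 (1.25, SE 0.38) and lower Etv4 (-1.24, SE 0.53) on average. The adjusted p-values were 0.103, 0.196 and 0.35, all groups overlapped, and 0.221% of all genes were called in this comparison. KT;Lkb1f/f replicate 1 and sgSik1 replicate 2 each lay next to the other group: without sgSik1 replicate 2 the Etv1 difference was 4.11 (adjusted p = 0.00484), and without KT;Lkb1f/f replicate 1 it was 3.46 (adjusted p = 0.00743). Etv5 passed without KT;Lkb1f/f replicate 1 as well, at a log2 difference of 1.52 (adjusted p = 0.0363). In the fit of all 12 libraries, no member passed the threshold between the 2 genotypes.

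By title, Etv5 fell in both kinds of Sik-targeted tumours: by 1.93 (SE 0.44) on the log2 scale in sgSik1 and by 2.36 (SE 0.53) in sgSik1-3, with adjusted p-values of 0.0252 and 0.0302. Etv1 was lower by log2 differences of -2.46 (SE 0.79) in sgSik1 and -3.33 (SE 1.02) in sgSik1-3 and missed the threshold in both (adjusted p = 0.0903 and 0.0868), the sgSik1-3 group holding 11 Etv1 counts in all. Etv4 differed by 1.55 (SE 0.54) and 1.52 (SE 0.60), also without a call (adjusted p = 0.114 and 0.171). The sgSik1 value was 0.485 without sgSik1 replicate 1 (adjusted p = 0.588) and 1.90 without sgSik1 replicate 2 (adjusted p = 0.0459). Etv1 in sgSik1 passed without KT;Lkb1f/f replicate 1 (-2.46, adjusted p = 0.039) and without sgSik1 replicate 2 (-4.50, adjusted p = 0.00532), and Etv1 in sgSik1-3 passed without either of the same libraries (adjusted p = 0.034 and 0.024). In sgSik1 libraries 1.13% of 15303 genes were called lower and 2.71% higher, with 10.4% and 8.57% not overlapping KT. In sgSik1-3 libraries 1.15% were called lower and 1.74% higher, with 20.5% and 15.3% not overlapping, in a group of only 2 libraries. Etv1 and Etv5 were below every KT library under both titles, and Etv4 was above every KT library in sgSik1-3 and overlapped KT in sgSik1. The direct difference of Etv4 between sgSik1-3 and sgSik1 was -0.03 (interval -1.4 to 1.34). Leaving out 1 library ended the Etv5 call in sgSik1 without sgSik1 replicates 1 or 3 or KT replicates 1 or 4, and in sgSik1-3 without either sgSik1-3 replicate or KT replicates 1 or 4, at log2 values of -1.75 to -2.43. Between sgSik1-3 and sgSik1 the log2 differences were -0.87 (interval -3.03 to 1.29) for Etv1 and -0.43 (interval -1.49 to 0.64) for Etv5, and 0.0% of genes were called by edgeR, 528 at an unadjusted p under 0.05 and 6 by DESeq2.

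**Figure D2:**
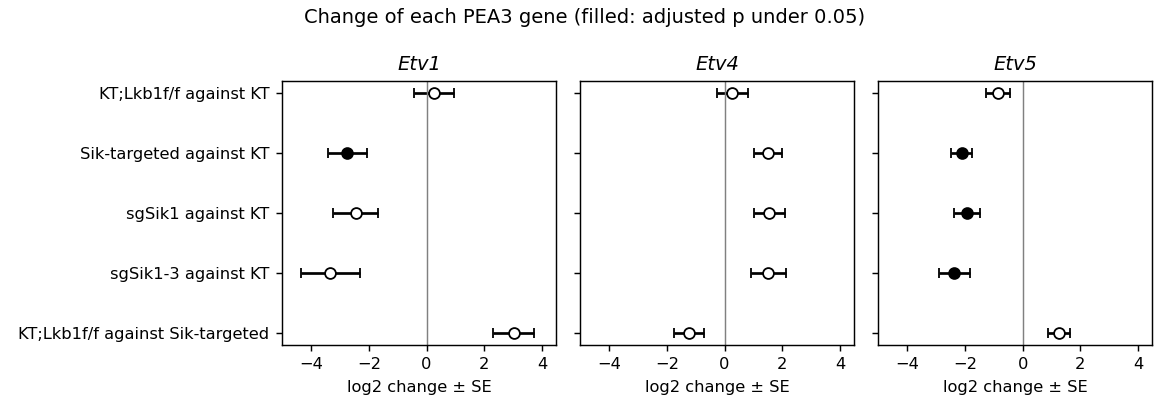
Log2 change with its SE (bars) of Etv1, Etv4 and Etv5 in 5 comparisons; filled points passed an adjusted p of 0.05 and open points did not. Both Etv1 and Etv5 lie left of 0 and Etv4 right of 0 in all Sik-targeted comparisons with KT, and the filled points are Etv1 at -2.75 and Etv5 at -2.11, -1.93 and -2.36.

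The balance among the members was read as the log2 ratio of their counts within a library, which needs no scaling between libraries. It is made from the same counts as the changes above and is no separate support for them. Etv4 over Etv5 was -1.05, -4.09 and -2.85 in sgSik1 libraries and -2.13 and -1.87 in sgSik1-3 libraries, against -6.66, -5.26, -4.80 and -6.63 in KT libraries. Every Sik-targeted library lay above every KT library, and the mean difference was 3.44 (exact permutation test over libraries, 2-sided p = 0.0159, the smallest that 5 against 4 libraries allow; 0.0476 after adjustment over the 6 ratio tests). Etv1 over Etv4 was -4.64, -0.08 and -4.15 in the 3 sgSik1 libraries and -3.40 and -3.17 in the sgSik1-3 ones, against 2.20, 1.21, 0.69 and 1.89 in KT libraries. The sign of this ratio differed: Etv4 had more counts than Etv1 in all 5 Sik-targeted libraries and fewer in all 4 KT libraries, with a mean difference of -4.59 (exact permutation p = 0.0159, adjusted p = 0.0476). Leaving out any 1 Sik-targeted or KT library kept the direction of both ratios and took their adjusted p to between 0.0571 and 0.107, since fewer libraries raise the smallest p. Etv1 over Etv5 differed by -1.15 (exact permutation p = 0.0476, adjusted p = 0.0952), and the groups overlapped. In KT;Lkb1f/f libraries the differences from KT were 1.09, -0.36 and 0.73 for Etv4 over Etv5, Etv1 over Etv4 and Etv1 over Etv5, with exact permutation p-values of 0.229, 0.514 and 0.286, where 3 against 4 libraries cannot go below 0.0571.

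**Figure D3:**
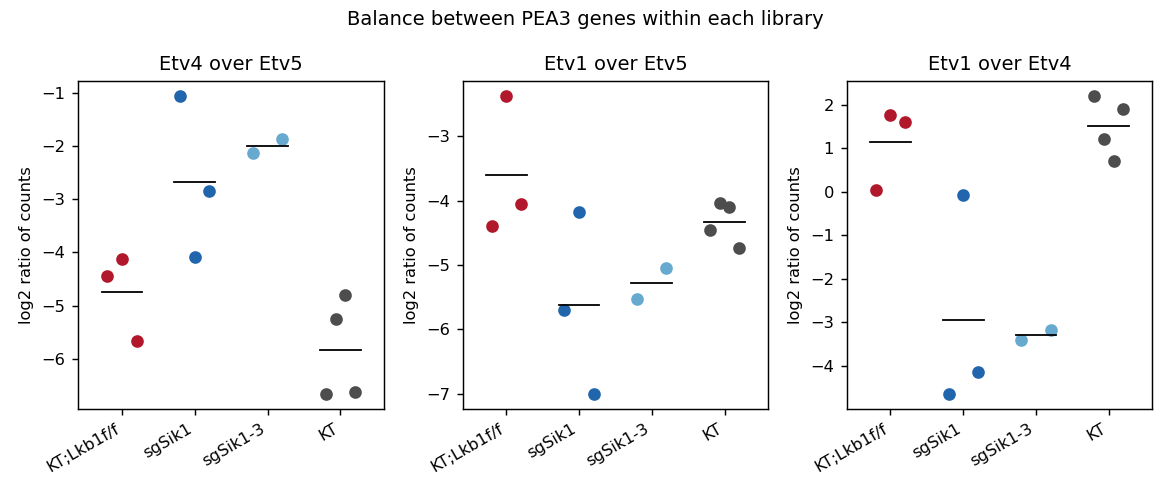
Log2 ratio of counts between PEA3 genes within each library, by group; each point is 1 library and each line a group mean. Etv4 over Etv5 is higher, and Etv1 over Etv4 lower, in all 5 sgSik1 and sgSik1-3 libraries than in all 4 KT libraries.

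Per length, Etv5 was the most abundant member in every group. On CPM per kilobase of the union of GENCODE exons (13296, 3104 and 4103 bases for Etv1, Etv4 and Etv5), Etv5 averaged 32.6 ± 13.8 in KT;Lkb1f/f (SD, n = 3), 13.8 ± 4.88 in Sik-targeted (SD, n = 5) and 58.9 ± 23.5 in KT libraries (SD, n = 4). Etv4 averaged 1.59, 3.84 and 1.30 CPM per kilobase, and Etv1 averaged 1.03, 0.127 and 0.855 CPM per kilobase, in the same order of groups. The exon union of Etv1 holds every annotated exon, so its level per length is a low estimate, and its order against Etv4 in KT and KT;Lkb1f/f libraries is not settled by these values.

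Etv5 was lowest in the libraries with the lowest mean log2 level of AT2 identity genes. Of 17 such genes apart from Etv5, 8 fell and 0 rose in Sik-targeted libraries (median log2 difference -1.42, against -0.03 over all genes), and 0 were called in KT;Lkb1f/f (median -0.54, against -0.04). The shares over all genes were 6.56% lower and 5.81% higher in Sik-targeted and 1.16% in either direction in KT;Lkb1f/f libraries. Lyz2, a lysozyme of AT2 cells and also of macrophages, fell by 4.83 (adjusted p = 0.00426), the chemokine Cxcl15 by 3.43 (adjusted p = 0.0046) and Lpcat1, which makes surfactant lipid, by 2.16 (adjusted p = 0.00789). Positive without a call were 2 of the 17, Sftpb (1.05) and Nkx2-1 (0.14), both named after their values were seen. The mean log2(CPM + 1) of the 17 genes was 8.46, 9.51 and 9.71 in KT;Lkb1f/f, 7.92, 9.12 and 7.79 in sgSik1, 7.73 and 7.46 in sgSik1-3, and 10.6, 9.57, 9.53 and 10.2 in KT libraries. The library with the highest AT2 mean in each of the KT;Lkb1f/f, sgSik1 and sgSik1-3 groups and in KT was also the one with the highest Etv5. In sgSik1 replicate 2 the high Etv1 and Etv5 values stand beside the highest AT2 mean of the Sik-targeted group. The order differed by summed CPM of the 17. There sgSik1 replicate 1 held 37400, above 22500 in sgSik1 replicate 2 and 37000 and 33400 in KT replicates 2 and 3. With KT replicates 2 and 3 both left out, 3 of the 17 were called lower (median -1.73), and the count was 5 without any 1 of sgSik1 replicates 1 and 3, sgSik1-3 replicates 1 and 2 and KT replicates 1 and 2.

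**Figure D4:**
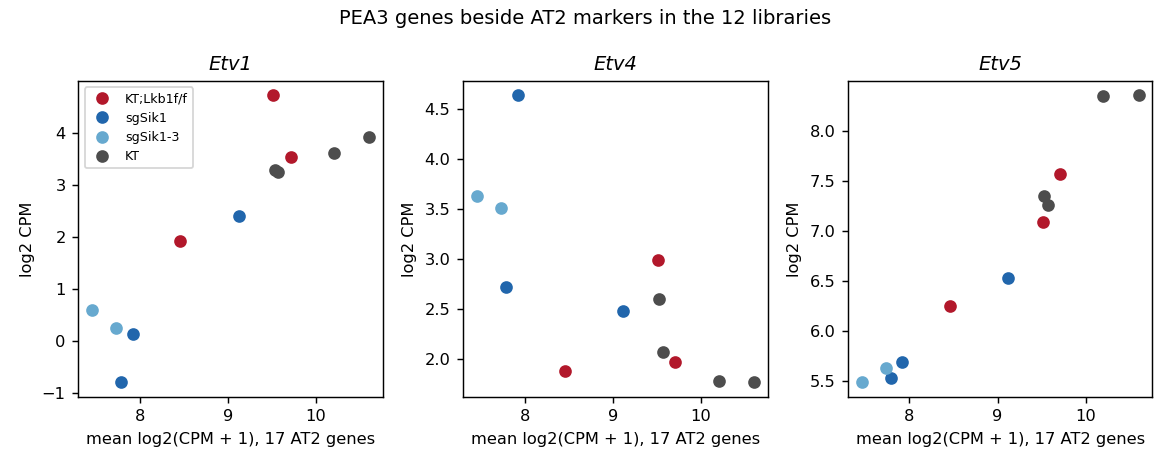
Log2 CPM of Etv1, Etv4 and Etv5 against the mean log2(CPM + 1) of 17 AT2 genes; each point is 1 of 12 libraries, coloured by group. Etv5 is lowest in the libraries with AT2 means of 7.46 to 7.92 and highest in KT replicates 1 and 4, with AT2 means of 10.6 and 10.2.

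Markers of other cell types differed too, and their part in the Etv results was not tested. Macrophage markers (13 in the table) summed to 13.5 to 15.0 CPM in KT;Lkb1f/f, 15.0 to 36.3 CPM in Sik-targeted and 87.9 to 1150 CPM in KT libraries, with 3 to 8, 2 to 6 and 0 to 2 of them at 0 in the same order. Club cell markers summed to 38.0 to 56.9, 23.9 to 112 and 419 to 3230 CPM and ciliated markers to 2.32 to 5.87, 0.363 to 3.75 and 20.3 to 48.3 CPM, in the same order of groups. Fibroblast and pericyte markers summed to 2.69 to 437, 16.9 to 43.2 and 30.3 to 405 CPM, with at most 2 of the 9 at 0 in any library. In Sik-targeted libraries, where Etv1 fell, 0 of 8 tested had a positive log2 difference from KT (median -2.51) and 2 fell, Col3a1 (-4.19, adjusted p = 0.0186) and Pdgfra (-4.03, adjusted p = 0.0252), both named after their values were seen. Leukocyte markers summed to 80.3 to 170, 112 to 173 and 161 to 227 CPM. Most of this was Lcp1, with means of 112, 130 and 160 CPM and no call. Of 5 tested, 1 was called lower in KT;Lkb1f/f (median -2.53) and 3 in Sik-targeted libraries (median -2.11). Ptprc, the CD45 gene, was called lower in both (-6.29, adjusted p = 0.0408, and -3.46, adjusted p = 0.0218). In Sik-targeted libraries Rac2 had a positive difference (1.92) without a call. Lcp1 and Rac2 are named after their values were seen. The 21 dissociation response genes were higher than in KT, at 14700 to 23100, 10600 to 29800 and 2620 to 6270 CPM. Of them, 7 were called higher in KT;Lkb1f/f and 10 in Sik-targeted libraries. Mast cell and basophil markers summed to 0.55 to 217, 38.2 to 114 and 0.471 to 3.51 CPM. Only 1 of these 7 was tested, and it was called higher in Sik-targeted libraries (6.52) but not in KT;Lkb1f/f (6.59). Of 10 AT1 markers 1 rose and 2 fell in Sik-targeted libraries and 0 were called in KT;Lkb1f/f. The 1 that rose was Vegfa, which is also among the genes listed below as PEA3 targets. Beside these counts, 5.81% of all genes were called higher and 6.56% lower in Sik-targeted libraries, and 1.16% in KT;Lkb1f/f libraries.

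Etv1 and Etv5 fell in Sik-targeted libraries while most ERK output genes rose. Of 17 tested feedback and output genes of the ERK pathway, 12 rose and 1 fell in Sik-targeted libraries (median log2 difference 2.15, against -0.03 over all genes), and 4 rose and 0 fell in KT;Lkb1f/f libraries (median 1.40, against -0.04). Calls over all genes made up 5.81% higher and 6.56% lower in Sik-targeted and 1.16% in either direction in KT;Lkb1f/f libraries. Fosl1, an AP-1 subunit, was 122, 5.76 and 20.5 CPM in sgSik1 and 13.5 and 17.6 CPM in sgSik1-3 libraries, against 0.157, 0.439, 0.236 and 0.424 CPM in KT libraries. All Sik-targeted values lay far above the KT values (log2 change 6.72, adjusted p = 0.00162). Dusp6, the phosphatase that inactivates ERK, was 610, 206 and 258 CPM in sgSik1 and 283 and 299 CPM in sgSik1-3 libraries, against 54.9, 43.3, 34.0 and 89.8 CPM in KT libraries. The groups did not overlap, and Dusp6 rose by 2.56 (SE 0.42, adjusted p = 0.00281). Phlda1 rose by 2.50 (adjusted p = 0.00335) and Ier3 by 2.54 (adjusted p = 0.00459). Spry1, a Sprouty inhibitor of receptor signalling, was the 1 that fell (-1.09, SE 0.26, adjusted p = 0.0157). It was 19.6, 23.8 and 16.5 CPM in sgSik1 and 19.7 and 13.8 CPM in sgSik1-3 libraries, against 36.1, 42.7, 32.7 and 45.3 CPM in KT libraries. Spry1 lay below KT in all 5 libraries, as Etv1 and Etv5 did. In KT;Lkb1f/f libraries the 4 that rose were Fosl1 (5.67), Dusp6 (2.19), Phlda1 (2.03) and Spry4 (1.83), with adjusted p-values of 0.0179, 0.0365, 0.0414 and 0.0408. Spry1 is named as the 1 that fell in Sik-targeted libraries and Spry4 as 1 of the 4 that rose in KT;Lkb1f/f libraries, both after their values were seen. The Spry1 call was lost without KT replicate 2, with or without KT replicate 3. Egr1 and Ier3 are also among the dissociation genes. With KT replicates 2 and 3 both left out, 0 of the 17 were called in either comparison, with medians of 2.0 and 1.21, and 98 and 3 of all genes were called. Over single libraries left out, 8 to 12 were called higher in Sik-targeted libraries. In KT;Lkb1f/f libraries 0 were called without any 1 of KT replicates 1, 2 and 3, and 7 without sgSik1 replicate 1. The count there was 2 without any 1 of KT;Lkb1f/f replicates 1 and 2, sgSik1 replicate 3 and sgSik1-3 replicate 1, and 1 without sgSik1-3 replicate 2.

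Upstream, the RAS and ERK cascade genes gave 1 call in 22 in Sik-targeted libraries (Shc1, an adaptor, which rose by 0.89, adjusted p = 0.0437) and 0 in KT;Lkb1f/f, with medians of 0.08 and 0.19. For all genes, 5.81% were called higher and 6.56% lower in Sik-targeted libraries, and 1.16% in either direction in KT;Lkb1f/f libraries. Their medians were -0.03 and -0.04. Among 17 receptors and ligands of the FGF and EGF families, 4 rose and 2 fell in Sik-targeted libraries, and 3 rose in KT;Lkb1f/f libraries. The epidermal growth factor receptor ligand Ereg rose by 2.81 (adjusted p = 0.000404) in Sik-targeted and by 2.66 (adjusted p = 0.0042) in KT;Lkb1f/f libraries, which share the KT libraries. Areg rose by 2.20 (adjusted p = 0.00207) and 2.01 (adjusted p = 0.0197) and Hbegf by 1.55 (adjusted p = 0.00624) and 2.02 (adjusted p = 0.0143) in the same order. Fgfr2, the receptor of the lung Fgf10 and Etv axis, was 47.4, 126 and 105 CPM in sgSik1 and 70.7 and 72.7 CPM in sgSik1-3 libraries, against 221, 147, 187 and 317 CPM in KT libraries. It lay lower in every Sik-targeted library and fell by 1.39 (SE 0.32, adjusted p = 0.0132), and in KT;Lkb1f/f libraries it was 170, 154 and 169 CPM. Fgfr4 rose by 3.79 (adjusted p = 0.00827). Fgfr2 and Fgf10 were the 2 that fell and are named after their values were seen. Fgf10, the ligand, was called lower (adjusted p = 0.0492) from 0 counts in all 5 Sik-targeted libraries, against 0.424 to 1.9 CPM in KT libraries. These KT levels are near the floor, since 3 counts equal 0.22 to 0.635 CPM in KT libraries. Fibroblast and pericyte markers were also lower in Sik-targeted libraries (median -2.51), and their part in the Fgf10 call was not tested. Without KT replicates 2 and 3 together, the calls among these receptors and ligands in Sik-targeted libraries were 2 higher and 0 lower. Without any 1 of sgSik1 replicates 1 and 3, both sgSik1-3 libraries and the 4 KT libraries, 1 was lower. In KT;Lkb1f/f libraries 0 were called without KT replicates 2 and 3 together, and 1 was higher without KT replicate 3 alone.

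The Capicua and COP1 list gave 0 calls of 10 genes in both comparisons, at medians of 0.16 in Sik-targeted and 0.08 in KT;Lkb1f/f libraries. Among all genes the called shares were 5.81% higher and 6.56% lower in Sik-targeted and 1.16% in KT;Lkb1f/f libraries, with medians of -0.03 and -0.04. Cic itself was 267, 55.8 and 60.4 CPM in sgSik1 and 55.2 and 68.2 CPM in sgSik1-3 libraries, against 43.6, 43.3, 42.6 and 48.5 CPM in KT libraries. Every Sik-targeted library was above KT, with 1 far higher value in sgSik1 replicate 1, and the log2 difference of 1.16 (SE 0.45) missed the threshold (adjusted p = 0.100). Its partner Atxn1l differed by 0.70 (SE 0.24, adjusted p = 0.0739). Cic activity is set after translation and is not read by these counts.

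**Figure D5:**
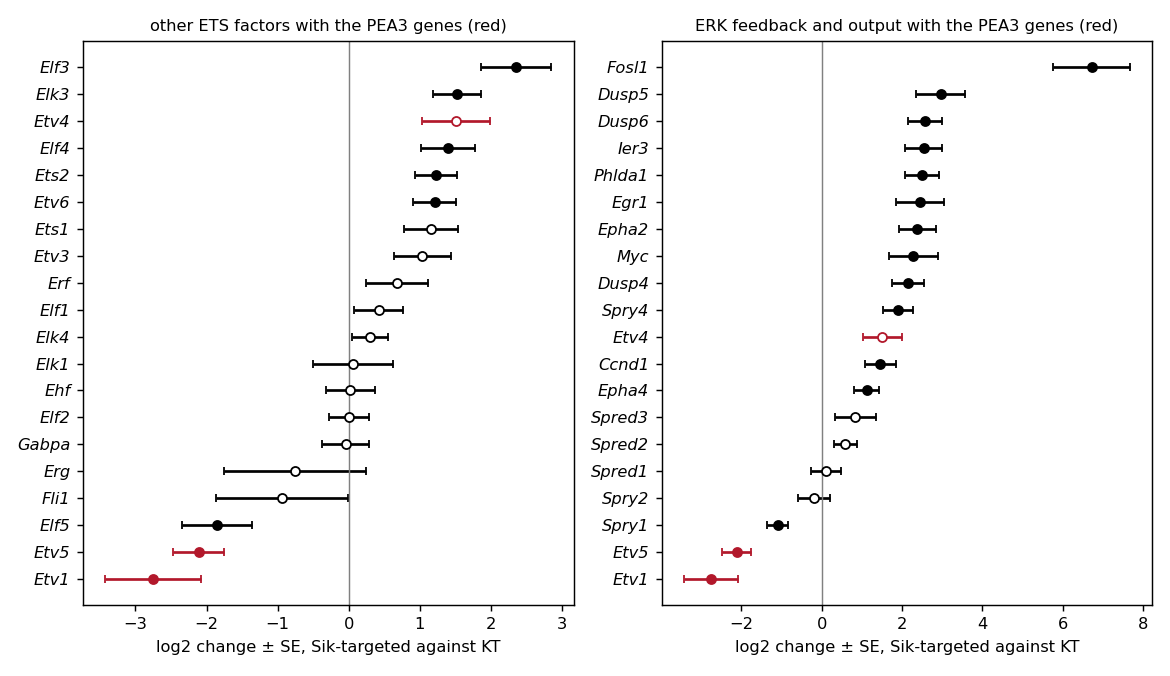
Log2 change with its SE (bars) of 17 other ETS genes (left) and 17 ERK feedback and output genes (right) in Sik-targeted against KT libraries, with the PEA3 genes in red in both panels; filled points passed an adjusted p of 0.05. Etv1 at -2.75 and Etv5 at -2.11 lie at the low end of both panels. Etv4 at 1.51 is an open point, among the higher genes on the left and below the ERK gene median of 2.15 on the right.

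Among 22 other ETS genes in the table, 17 were tested and 5 rose and 1 fell in Sik-targeted libraries (median 0.42), while 0 were called in KT;Lkb1f/f libraries (median 0.81, 15 of 17 above 0). These medians cover the genes past the filter. Over all 22 the Sik-targeted median was 0.016 with no low-count filter and 0.039 with DESeq2. The KT;Lkb1f/f median was 0.62 and 0.61 in the same order. All genes past the filter had medians of -0.03 in Sik-targeted and -0.04 in KT;Lkb1f/f libraries. Of them, 5.81% were called higher and 6.56% lower in Sik-targeted and 1.16% in either direction in KT;Lkb1f/f libraries. Elf3, an ETS factor of epithelial cells, was 143, 29.0 and 75.3 CPM in sgSik1 and 55.2 and 59.8 CPM in sgSik1-3 libraries, against 26.2, 9.22, 7.56 and 12.9 CPM in KT libraries, which it did not overlap. It rose by 2.36 (SE 0.50, adjusted p = 0.00883). Elk3, Ets2 and Etv6 rose by 1.52, 1.23 and 1.21 (adjusted p = 0.0120, 0.0157 and 0.0191). Elf4 rose by 1.40 (adjusted p = 0.0274), and Elf5, a factor of secretory epithelium, was the 1 that fell, by 1.85 (SE 0.49, adjusted p = 0.0252). Elf4 and Elf5 are named because few genes passed here, after their values were seen. With KT replicates 2 and 3 both left out 0 of the 17 were called (median 0.39), and the count of 5 was 2 without KT replicate 2 and 3 without KT replicate 1 or KT replicate 3. The Elf5 call was lost without any 1 of sgSik1 replicate 3, sgSik1-3 replicate 2 and KT replicates 1, 2 and 4.

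Genes listed from background knowledge as PEA3 targets did not follow 1 direction. Of 12 tested, 5 rose and 2 fell in Sik-targeted libraries, and 0 were called in KT;Lkb1f/f libraries, with medians of 0.76 and 0.82. The first median depends on the genes included: over all 16 genes of the list it was -0.46 with no low-count filter and -0.47 with DESeq2. Medians over all tested genes were -0.03 and -0.04. Shares called over all tested genes were 5.81% higher and 6.56% lower in Sik-targeted and 1.16% in either direction in KT;Lkb1f/f libraries. Plaur, the urokinase receptor, rose by 3.44 (adjusted p = 0.00123), the membrane metalloprotease Mmp14 by 2.28 (adjusted p = 0.00459) and the angiogenic factor Vegfa by 1.48 (adjusted p = 0.0262). The secreted metalloprotease Mmp3 fell by 3.15 (adjusted p = 0.0323), with means of 0.243 CPM in Sik-targeted and 2.39 CPM in KT libraries. Without KT replicates 2 and 3 the counts were 1 higher and 0 lower, and over single libraries left out they ran from 2 to 5 higher and 0 to 3 lower. Leaving out any 1 of sgSik1 replicate 3, both sgSik1-3 libraries and the 4 KT libraries gave 2 or 3 higher.

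Over the 12 libraries Etv1 and Etv5 varied together (Pearson's r of log2 CPM 0.881), and Etv4 ran against both (-0.729 with Etv5 and -0.619 with Etv1). These describe 12 points that share 4 groups and their depth. Of 10196 genes with a mean of at least 2 CPM, the 5 most like Etv5 were Rasd2 (0.969), Mlc1 (0.966), Lyz2 (0.964), Cox6a2 (0.96) and Adora2b (0.959). The genes most like Etv1 were Tceal8 (0.961), Anpep (0.954), Aox3 (0.95), Baiap3 (0.944) and Rassf8 (0.943). The genes most like Etv4 were Dnajb12 (0.897), Fstl4 (0.895), Inf2 (0.892), E2f8 (0.89) and Pml (0.885), a looser set than for the other members.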

How the data were processed

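Per the submitters' processing notes, reads were processed with STAR 2.4.2a and HTSeq on mm10. Which annotation and strand option HTSeq used was not given in the sources used here. In 1 table, the authors deposited raw counts per gene symbol, with 30743 rows and 12 libraries, each matched to a sample by its title. RNA was amplified from few cells and carries no molecule tags, so counts are not independent molecules.

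Differences were tested across all genes with edgeR 4.0.16 under R 4.3.3 (TMM factors, filterByExpr, robust quasi-likelihood F test, 2-sided, Benjamini-Hochberg adjustment over all tested genes, threshold 0.05). The genotype comparisons came from 1 fit of 3 groups (13575 genes) and the title comparisons from 1 fit of 4 groups (15303 genes). The SE is the log2 change over the square root of F, and intervals are 95% t intervals, unadjusted. Ratios between members used a pseudocount of 0.5 counts and exact permutation tests. Depth ran from 3847760 to 13955181 counts, so that 3 counts equal 0.165 to 0.852 CPM. Symbols, coordinates and promoters came from RefSeq, exon lengths from GENCODE. The Etv4 promoter was not used here. The edgeR fit of 3 groups was tried on simulated counts with a common dispersion, for KT;Lkb1f/f against KT.

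The members and 20 gene lists were chosen with earlier results of these data known. Named genes were the members, up to 4 called genes per list by smallest p, Cic, Atxn1l, the targeted genes and the 5 most alike genes, without predicted genes; a few more, chosen after their values were seen, are marked in the text. Alternatives were DESeq2 1.42.0, RLE factors, no filter, only the groups compared, the replicate number as a block, and libraries left out.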

Additional observations from a re-analysis of the deposited data

Results flagged for a closer look

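Among 12 sets of library values checked (the 3 members and the 3 ratios, in Sik-targeted and in KT libraries), 2 held a library far from the others of its group, and chance flags about 1 in 20 such sets. The 12 sets are not independent, since the ratios are made from the counts of the members. Members were checked as CPM and not on a log scale. In both flagged sets the library was sgSik1 replicate 2. Etv1 was 5.04 CPM there, against 0.331 to 1.27 CPM in the other 4 Sik-targeted libraries. Etv5 was 92.2 CPM there, against 44.6 to 51.4 CPM in the others. In the same library the mean log2(CPM + 1) of the AT2 genes was 9.12, against 7.46 to 7.92, and Fosl1 was the lowest of the Sik-targeted libraries at 5.76 CPM. Etv4 was 5.33 CPM there, also the lowest of the 5.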

How the results depend on the processing

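The Etv5 call in Sik-targeted libraries against KT held under all 7 other settings and all 12 single libraries left out, with log2 changes of -2.35 to -1.94 over single libraries left out. The Etv1 call held under all of these but 1: with KT replicates 2 and 3 both left out it was -2.99 (adjusted p = 0.104), and single libraries left out gave -3.85 to -2.43. Etv4 in Sik-targeted libraries against KT passed with no low-count filter (1.49) and with DESeq2 (1.51), and without any 1 of 3 libraries. Single libraries left out gave 1.06 to 1.74. Etv1 between KT;Lkb1f/f and Sik-targeted libraries passed with no filter (3.03), with DESeq2 (3.06) and without sgSik1 replicate 1 and KT;Lkb1f/f replicate 1 together (3.37), as did Etv5 in the last of these (1.51). Single libraries left out gave 2.11 to 4.11 for Etv1 and 0.904 to 1.52 for Etv5. Etv1 in sgSik1 passed with no filter (-2.50), with DESeq2 (-2.51) and without either of 2 libraries. Etv1 in sgSik1-3 passed with no filter (-3.33), only the groups compared (-3.32), that pair left out (-3.32), DESeq2 (-3.36) and without either of 2 libraries. Etv4 in sgSik1-3 passed at 1.51 with only the groups compared and with that pair left out. Without KT replicates 2 and 3, Etv5 missed the threshold in sgSik1 (-2.40) and sgSik1-3 (-2.79), and the ratios in Sik-targeted libraries were 4.24 (Etv4 over Etv5) and -5.14 (Etv1 over Etv4), adjusted p = 0.24, since fewer libraries raise the smallest p. Etv4 in sgSik1-3 against sgSik1 turned sign with no filter (0.043), without KT replicates 2 and 3 (0.024) and without the other pair (1.03). Only the groups compared gave no value for Etv1 in sgSik1-3 against sgSik1, which failed the filter there.

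Replicate numbers share only a number: same-numbered libraries correlated in their deviations between -0.313 and 0.221. With the replicate block, Etv1 in KT;Lkb1f/f against KT turned to -0.16, Etv5 missed the threshold in sgSik1 (-1.77, adjusted p = 0.0905) and sgSik1-3 (-2.21, adjusted p = 0.0979), and no other member call changed. Genes called with the block numbered 49 in KT;Lkb1f/f, 1050 in Sik-targeted, 254 in sgSik1 and 126 in sgSik1-3 against KT, and 10 in KT;Lkb1f/f against Sik-targeted.

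Counts of genes called, against 158 in KT;Lkb1f/f, 1679 in Sik-targeted, 588 in sgSik1 and 443 in sgSik1-3 against KT, 30 in KT;Lkb1f/f against Sik-targeted and 0 in sgSik1-3 against sgSik1, moved most. In that order, no filter gave 846, 3654, 1783, 1440, 698 and 44. DESeq2 gave 511, 1392, 1236, 312 and 6, leaving out Sik-targeted, where it was within 1.5 times. Without KT replicates 2 and 3 they were 3, 98, 1, 11 and 9, the last for KT;Lkb1f/f against Sik-targeted. Without sgSik1 replicate 1 and KT;Lkb1f/f replicate 1 they were 2573 (Sik-targeted), 1893 (sgSik1-3), 902 (KT;Lkb1f/f against Sik-targeted) and 4 (sgSik1-3 against sgSik1). Only the groups compared gave 1029 (sgSik1), 1941 (sgSik1-3) and 0 (KT;Lkb1f/f against Sik-targeted, where the fit of all libraries called 30). Over single libraries left out the ranges were 13 to 242, 577 to 2655, 134 to 1269, 52 to 1127, 5 to 710 and 0 to 4.

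Over single libraries left out, the log2 values ran in KT;Lkb1f/f against KT from -0.62 to 0.73 for Etv1 and -0.20 to 0.50 for Etv4, both lowest without KT;Lkb1f/f replicate 2. They ran in sgSik1 from -4.50 to -1.87 for Etv1, 0.485 to 1.90 for Etv4 and -2.31 to -1.75 for Etv5, and in sgSik1-3 from -3.55 to -3.14 for Etv1 and -2.54 to -2.18 for Etv5. In sgSik1-3 against sgSik1 they ran from -1.46 to 1.17 for Etv1 and -0.39 to 1.03 for Etv4, with Etv4 also at 0.03 (without sgSik1-3 replicate 1) and 0.04 (without KT replicate 4). The ratios ran from 3.10 to 3.86 (Etv4 over Etv5) and -5.34 to -4.20 (Etv1 over Etv4) in Sik-targeted libraries, and from -0.67 to 0.18 (Etv1 over Etv4) in KT;Lkb1f/f. The causes of these shifts were not tested. Counts over the gene lists under other settings were added after seeing the data. Depth limits Etv1 most: the sgSik1-3 libraries held 4 and 7 counts.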
